A study of Homo sapiens with 4 samples.

Results

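The genes for 10 intermediate filament proteins other than keratins were examined across 4 bulk RNA-seq libraries of TE5, a cell line from a human squamous carcinoma of the oesophagus. They are the neurofilament-class genes INA, NEFL, NEFM and NEFH, the vimentin gene VIM, the vimentin partners NES and SYNM, and the lamin genes LMNA, LMNB1 and LMNB2. The 10 genes were taken by name from the 55764 gene names of the deposited table. The set was selected on 2 measured values, the change of INA, which was known to be among the largest rises in these data, and the high level of VIM, so those values are given below as a description. In 2 libraries the cells had been infected with a lentiviral vector that expresses human ETS1 from a CMV promoter and kept as stable overexpressing cells. The 2 control libraries came from cells with the empty backbone, whose genotype the labels give as WT. All 4 therefore carry a viral vector that was packaged in HEK293T cells, and all are TE5. Libraries are numbered 1 and 2 within a group and the labels name no cultures, so the p-values measure only the spread between these samples, which may be technical.

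Intermediate filaments are rope-like polymers of coiled-coil proteins that give cells mechanical strength. Vimentin is the main filament protein of mesenchymal cells and a widely used marker of epithelial-mesenchymal transition, while neurofilament proteins co-assemble in neurons, where NEFL forms the core that NEFM and NEFH need. Lamins line the inside of the nuclear envelope. A-type lamins (LMNA) vary with cell state and stiffness, and B-type lamins (LMNB1, LMNB2) are found in nearly every cell.

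The label of a squamous carcinoma was checked first against 15 squamous marker genes. Of these, 4 were listed at 0 in every library, and only SOX2, a progenitor transcription factor, reached a mean of 1 FPKM, a read count divided by gene length and library size. KRT13, a keratin of oesophageal lining, stood at 0.0935, 0.0933, 0.0659 and 0.0486 FPKM, and KRT5, a basal keratin, was listed at 0 in both controls. The squamous identity thus rests on the labels. ETS1 itself had 0.491 and 0.509 FPKM in control libraries and 1.84 and 1.87 FPKM in the ETS1 libraries. Recovered reads per library ranged from 40356723 to 57269984, with the ETS1 libraries the deeper ones.

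The upstream sequences of 2 members are shown because they bracket the range of response, INA having moved most and LMNB2 least among the tested members. Each run covers 250 to 51 bases before the RefSeq start site, on the gene's own strand, from RefSeq on GRCh38.p14. INA is chr10:103276888-103277087, plus strand, and LMNB2 is chr19:2457010-2457209, minus strand. Capitals mark GGAA, the core that ETS-family proteins bind, or TTCC, the same core read from the other strand.
INA: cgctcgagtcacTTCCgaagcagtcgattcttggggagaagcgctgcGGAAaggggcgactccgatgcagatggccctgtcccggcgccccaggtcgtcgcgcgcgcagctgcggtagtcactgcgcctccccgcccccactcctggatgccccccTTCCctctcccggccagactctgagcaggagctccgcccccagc
LMNB2: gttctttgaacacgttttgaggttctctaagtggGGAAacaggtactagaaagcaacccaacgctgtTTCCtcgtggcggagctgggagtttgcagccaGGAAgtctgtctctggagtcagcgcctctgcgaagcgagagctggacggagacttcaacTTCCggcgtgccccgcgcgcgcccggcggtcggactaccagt

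INA held 3 GGAA cores in this window and LMNB2 held 4, on either strand. The core alone is not selective, since 88.2% of 35116 RefSeq windows of the same length held at least 1. The longer form CGGAAG, which contains GGAA, matched once in INA, 239 bases before the start, and once in LMNB2, and was held by 11.5% of windows. CCGGAAGT, which contains both shorter forms, matched in LMNB2, 94 bases before the start, and not in INA, and was held by 1.67% of windows. The INA and LMNB2 windows had a GC content of 70.0% and 59.0%. Windows were also found for VIM, NES, SYNM, LMNA and LMNB1, none of which held CGGAAG. These matches are letters in a window and no binding was measured here.

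Across the 10 genes the levels spanned from VIM, the highest in every library, to NEFH, the lowest. In the controls the order was VIM, LMNB1, LMNB2, NEFL, NEFM, LMNA, INA, NES, SYNM, NEFH. In the ETS1 libraries NEFM stood above NEFL and INA above LMNA, with the other ranks as in the controls. In both groups, 0 neighbours in this order had overlapping FPKM values. The groups did not overlap for any of the 10 genes, which carries little weight because 82.0% of all tested genes showed no overlap either.

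**Figure D1:**
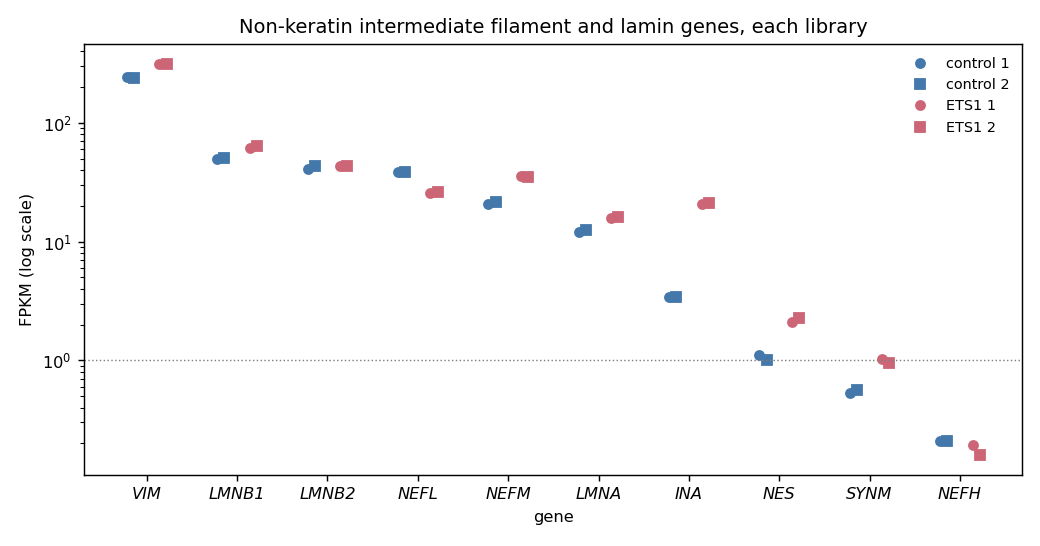
FPKM of each of the 10 genes on a log axis, with control libraries in blue and ETS1 libraries in red, circles for replicate 1 and squares for replicate 2. The dotted line is 1 FPKM, the level a gene's mean had to reach to be tested; INA shows the widest gap between groups, from 3.41 to 20.9 FPKM, and NEFL and NEFM move in opposite directions.

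Of the 10 genes, 8 passed the filter of a mean of at least 1 FPKM over the 4 libraries and were tested with limma on log2(FPKM + 1). SYNM and NEFH were under it. Setting aside INA, whose rise chose the set, 5 of 7 tested members were called higher, 1 lower and 1 not called at a Benjamini-Hochberg adjusted p under 0.05. Over all 14306 genes tested, 30.7% were called higher, 28.4% lower and 59.1% in either direction, so a call on its own was common in this comparison. The median change over all tested genes was 0.016 on the log2 scale.

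The neurofilament-class genes are described first. INA encodes alpha-internexin, which neurons make early and which can assemble by itself or join the other neurofilament proteins (chromosome 10, 103277163 to 103290351, plus strand, GENCODE 29 on GRCh38). It had 3.43 and 3.38 FPKM in control libraries and 20.7 and 21.1 FPKM in the ETS1 libraries, resting on 449 and 483 control reads and on 3843 and 3868 ETS1 reads. Mean FPKM was 3.41 ± 0.0389 without and 20.9 ± 0.295 with the ETS1 vector (SD, n = 2 each), and the choice of INA for its rise fixed that gap. The ratio was 6.14 and the change 2.31 (SE 0.033) on the log2(FPKM + 1) scale. Among genes called higher it had rank 7 by size of change.

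NEFL, the light neurofilament chain, went the other way (chromosome 8, 24950955 to 24957110, minus strand). It had 38.8 and 38.4 FPKM in control libraries and 25.4 and 26.1 FPKM in the ETS1 libraries, a fall to 0.667 of the control level. Its log2 change was -0.57 (SE 0.029, limma adjusted p = 0.000492). Genes around it on chromosome 8 were lower as well, with a local median of -0.37 over 25 protein-coding genes on each side. With that median removed the change of NEFL was -0.20 (limma adjusted p = 0.000726), smaller but still past the threshold.

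NEFM, the medium chain, lies next to NEFL on the opposite strand (chromosome 8, 24913012 to 24919098), with the 3′ ends of the genes facing each other across 31856 bases. It rose from 20.8 and 21.6 FPKM to 35.6 and 34.9 FPKM, a ratio of 1.66. Its log2 change was 0.71 (SE 0.033, limma adjusted p = 0.000482) although its neighbourhood had a median of -0.39. With that median removed the change was 1.09 (limma adjusted p = 4.2e-07). The ratio of NEFM to NEFL, which does not depend on how libraries are scaled, was 0.535 and 0.564 in the controls and 1.40 and 1.34 in the ETS1 libraries. An exact permutation test of that ratio had p = 0.333, two-sided, which is the lowest value possible for 2 libraries against 2.

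NEFH, the heavy chain, was barely present (chromosome 22, 29480230 to 29491390, plus strand). It had 0.2091 and 0.2092 FPKM in control libraries and 0.193 and 0.159 FPKM in the ETS1 libraries and was not tested. With no filter its limma adjusted p was 0.478.

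Summed over these 4 genes, the neurofilament class had 63.3 and 63.6 FPKM in control libraries and 81.9 and 82.2 FPKM in the ETS1 libraries. INA made up 5.37% ± 0.078 of that sum in the controls and 25.5% ± 0.289 in ETS1 libraries (SD, n = 2 each). The share of NEFL went from 60.9% ± 0.745 to 31.4% ± 0.482 and that of NEFM from 33.4% ± 0.824 to 42.9% ± 0.741 (SD, n = 2 each). NEFL was thus the most abundant neurofilament RNA in both control libraries and NEFM in both ETS1 libraries. The sum and these shares all contain INA, whose rise chose the set, so they restate that rise in part and are given as a description. Within the sum, INA went from 3.43 and 3.38 FPKM to 20.7 and 21.1 FPKM, while NEFM rose and NEFL fell.

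**Figure D2:**
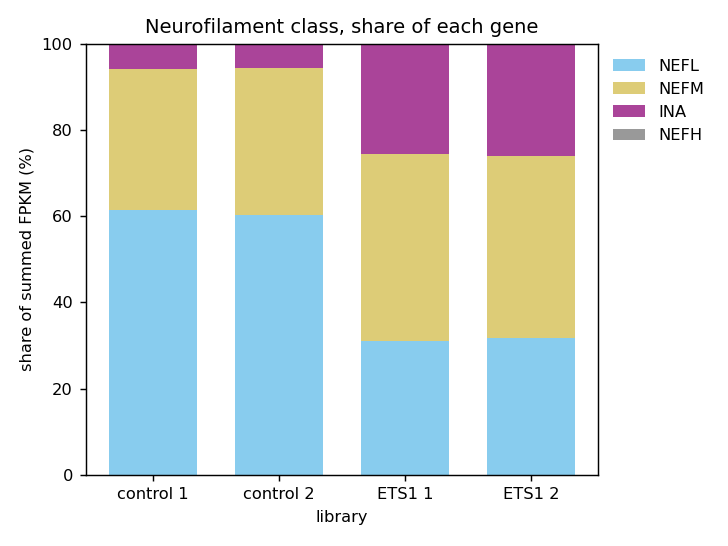
Share of each neurofilament-class gene in their summed FPKM, in percent, for each of the 4 libraries; bars stack to 100% by construction. The INA share is 5.43% and 5.32% in the controls and 25.3% and 25.7% in the ETS1 libraries, and NEFH is too small to see at under 0.34%.

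By the distance between control-centred log2(FPKM + 1) values over the 4 libraries, the tested genes closest to INA were SNAI2, RP3-510D11.2 and AL133493.2. SNAI2, a repressor of epithelial genes, lay at a distance of 0.0596 log2 units and had a change of 2.33. RP3-510D11.2 and AL133493.2, gene names without a GENCODE 29 match, lay at 0.0823 and 0.184. With 4 libraries in 2 groups this measure reflects little more than the size of the change.

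VIM, which encodes vimentin (chromosome 10, 17228259 to 17237593, plus strand), ranked 139 by mean FPKM among the 14306 tested genes. It had 242 and 239 FPKM in control libraries and 316 and 314 FPKM in the ETS1 libraries, resting on 48485 and 52381 control reads and on 89927 and 88415 ETS1 reads. The ratio was 1.31, with a log2 change of 0.39 (SE 0.025, limma adjusted p = 0.000679). Over the 15 alternatives the change ran from 0.28 to 0.65. The highest came from quantile normalization, which forces the same distribution on every library (limma adjusted p = 0.000406). The lowest came with the local chromosomal median of 0.11 removed (limma adjusted p = 7.4e-05). VIM-AS1, an antisense RNA that overlaps VIM, had 2.60 and 2.39 FPKM in control libraries and 2.79 and 2.49 FPKM with ETS1 (limma adjusted p = 0.459). Its reads cannot be told apart from those of VIM if strand was not used in counting.

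NES encodes nestin, a large protein of neural and muscle progenitors that copolymerises with vimentin (chromosome 1, 156668763 to 156677397, minus strand). It was low, with 1.11 and 1.00 FPKM in control libraries and 2.12 and 2.27 FPKM in the ETS1 libraries, resting on 250 and 247 control reads and on 676 and 716 ETS1 reads. The FPKM ratio was 2.07. The change was 0.63 (SE 0.063, limma adjusted p = 0.00157) on the log2(FPKM + 1) scale and 1.06 (limma adjusted p = 5.7e-06) in voom on recovered reads, which adds no FPKM pseudocount.

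SYNM encodes synemin, which links vimentin and desmin filaments to adhesion sites (chromosome 15, 99098217 to 99135593, plus strand). It had 0.528 and 0.564 FPKM in control libraries and 1.03 and 0.952 FPKM in the ETS1 libraries, resting on 167 and 195 control reads and on 464 and 422 ETS1 reads. At a mean of 0.769 FPKM it was under the filter and not tested. With no filter its change was 0.37 (limma adjusted p = 0.0349), and in the authors' deposited table it has 0.78 (log2) at an adjusted p of 2.9e-06.

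The level of VIM was also set against the other cytoplasmic members. Over VIM, NES, SYNM and the neurofilament class, the sum went from 306 and 304 FPKM to 401 and 399.9 FPKM, and VIM made up 78.8% and 78.6% of it in the controls and 78.8% and 78.6% in the ETS1 libraries. That sum includes INA. Without INA, a share computed after the values were seen, VIM made up 79.7% and 79.4% in the controls and 83.1% and 83.0% in the ETS1 libraries. Of the simple epithelial keratins, KRT8 rose from 3.89 ± 0.0277 to 6.53 ± 0.077 FPKM (SD, n = 2 each; limma adjusted p = 0.000591). Its partner KRT18 fell from 10.4 ± 0.217 to 8.32 ± 0.0402 FPKM (SD, n = 2 each; limma adjusted p = 0.00223). The annotations of KRT8 and KRT18 overlap on opposite strands, so reads in the overlap cannot be told apart if strand was not used in counting. VIM exceeded the sum of KRT8 and KRT18 by 17.1 and 16.6 times in the controls and 21.3 and 21.1 times in the ETS1 libraries.

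Among the lamins, LMNA and LMNB1 rose and LMNB2 did not pass the test. LMNA, the gene of lamins A and C (chromosome 1, 156082573 to 156140089, plus strand), had 12.1 and 12.6 FPKM in control libraries and 15.9 and 16.2 FPKM in the ETS1 libraries. Its ratio was 1.30 and its log2 change 0.35 (SE 0.034, limma adjusted p = 0.00145). The gene-level values do not separate lamin A from lamin C, which are splice forms.

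LMNB1 (chromosome 5, 126776623 to 126837020, plus strand) had 49.7 and 50.9 FPKM in control libraries and 61.3 and 63.5 FPKM in the ETS1 libraries. Its ratio was 1.24 and its log2 change 0.31 (SE 0.031, limma adjusted p = 0.00165). The genes around it had a median of 0.21, and with that removed the change was 0.099 (limma adjusted p = 0.0396).

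LMNB2 (chromosome 19, 2427638 to 2456996, minus strand) had 41.0 and 43.2 FPKM in control libraries and 43.5 and 43.2 FPKM in the ETS1 libraries. The values nearly touched between groups, with a log2 change of 0.042 (SE 0.034, limma adjusted p = 0.338). It passed under quantile normalization (0.15, limma adjusted p = 0.0214) and with the local chromosomal median removed (0.086, limma adjusted p = 0.0382). The annotation has TIMM13 overlapping LMNB2 on the same strand, and TIMM13, at 38.2 FPKM on average, had a log2 change of -0.27 (limma adjusted p = 0.0039). Reads in the overlap can be assigned to either gene or dropped, so the LMNB2 value is uncertain.

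The lamin sum went from 103 and 107 FPKM to 121 and 123 FPKM. LMNA made up 11.8% ± 0.0315 of it in the controls and 13.2% ± 0.0177 in the ETS1 libraries, and LMNB2 went from 40.2% ± 0.428 to 35.6% ± 0.602 (SD, n = 2 each). The ratio of LMNB2 to LMNB1 was 0.825 and 0.849 in the controls and 0.710 and 0.681 in the ETS1 libraries, without overlap. B-type lamins together outweighed LMNA in every library. The exact permutation p of each of these shares and of the ratio was 0.333.

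Genes that act with the lamins were taken from lists. Of 15 lamina partners, proteins that tether lamins to the nuclear membrane, chromatin or cytoskeleton, 13 were tested, with 6 called higher, 3 lower and a median log2 change of 0.16, where 59.1% of all tested genes were called in either direction. Without ETS1 replicate 2 fewer of the 13 were called, and fewer of all tested genes as well. TMPO, which encodes the lamin-binding protein LAP2, rose by 0.33 (SE 0.045, limma adjusted p = 0.00377). NRM, which encodes the nuclear membrane protein nurim, fell by 0.27 (SE 0.028, limma adjusted p = 0.00168). TOR1A, an ATPase of the endoplasmic reticulum and nuclear envelope on chromosome 9, had a change of -0.31 (SE 0.027, limma adjusted p = 0.00122) amid a local median of -0.35, and 0.047 (limma adjusted p = 0.231) once that median was removed.

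Genes of lamin processing were read next. Prelamin A and the B-type lamins receive a farnesyl lipid, lose their last residues and are methylated, and prelamin A is then cut by ZMPSTE24. Of the 5 genes of these steps, all tested, 4 were called lower and 0 higher, with a median log2 change of -0.23, where 28.4% of all tested genes were called lower. Of these 4 calls, those of FNTB and ICMT were lost under alternatives. FNTA, the alpha subunit of farnesyltransferase, had 11.5 ± 0.0903 FPKM without and 8.15 ± 0.0788 FPKM with the ETS1 vector (SD, n = 2 each), and fell by 0.45 (SE 0.031, limma adjusted p = 0.000755). RCE1, the protease of the second step, fell by 0.27 (SE 0.031, limma adjusted p = 0.00217). FNTB, the beta subunit, fell by 0.23 (SE 0.042, limma adjusted p = 0.00893) and lost the threshold without ETS1 replicate 1 (limma adjusted p = 0.0568). ICMT, the methyltransferase, was called at -0.099 (limma adjusted p = 0.0261) but lost the threshold under 8 of 15 alternatives and changed sign, to 0.011, under quantile normalization. ZMPSTE24 was not called at 0.11 (limma adjusted p = 0.235), but passed the threshold as higher under 2 of 15 alternatives, without control replicate 1 and with the local chromosomal median removed (0.19, limma adjusted p = 0.023). Its change ranged from 0.018 to 0.21 over the 15. Without ETS1 replicate 1 fewer of the 5 genes were called, and fewer of all tested genes as well. These enzymes also act on many other proteins.

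Of 7 plakins, large proteins that tie filaments to junctions and to other cytoskeletal systems, 5 were tested, 2 called higher and 1 lower, with a median log2 change of 0.025, close to the 59.1% called over all tested genes. DSP, the desmosomal plakin desmoplakin, rose by 0.23 (SE 0.030, limma adjusted p = 0.00315). MACF1 (0.17, limma adjusted p = 0.0253) and EPPK1 (-0.22, limma adjusted p = 0.0333) were called, but each lost the threshold under 8 of 14 alternatives, including each fit without 1 library. EPPK1 also changed sign, to 0.11, with the local chromosomal median removed.

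**Figure D3:**
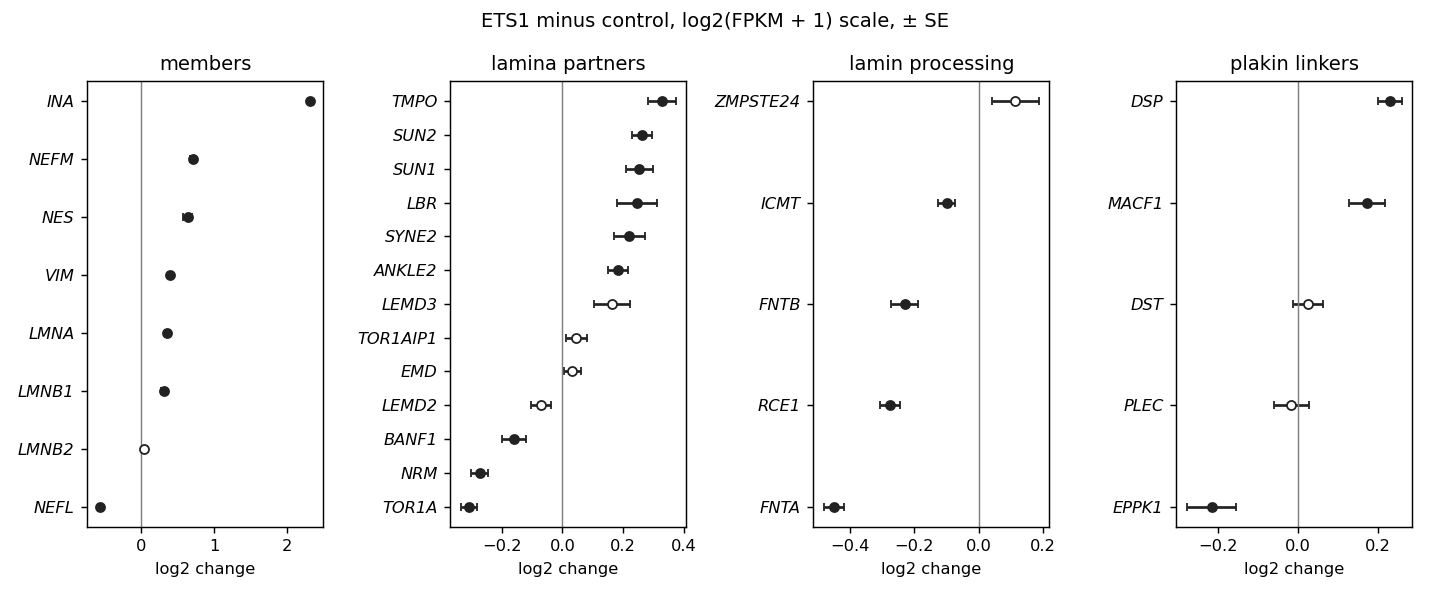
Change of each tested gene in ETS1 minus control on the log2(FPKM + 1) scale, with standard errors as bars, for the members, lamina partners, lamin processing genes and plakins; filled points passed an adjusted p under 0.05 and axes differ between panels. In the lamin processing panel 4 of 5 genes lie below 0 and are filled, where 28.4% of all tested genes were called lower, and the calls of FNTB and ICMT were lost under alternatives; in the member panel NEFL lies below 0, and INA is shown as a description.

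Of 8 other non-keratin filament genes, among them DES and GFAP, 3 were tested. IFFO1, an orphan member of the family, had a change of 0.13 (SE 0.028, limma adjusted p = 0.0151) and lost the threshold without either ETS1 library and in the authors' deposited table, among other settings. BFSP1, a lens filament gene, had -0.13 (limma adjusted p = 0.0622) and IFFO2 had -0.052 (limma adjusted p = 0.388). BFSP1 passed the threshold as lower under 4 of 14 alternatives, among them removal of the local chromosomal median (-0.22, limma adjusted p = 0.0031).

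Because INA, NEFL and NEFM are neuronal genes, 13 other neuronal markers were read beside them. In bulk RNA, a change in the number of cells of a type and a change in RNA per cell cannot be told apart. Of the 13, 4 reached the filter, with 1 called higher, 2 lower and a median log2 change of -0.086, where 59.1% of all tested genes were called in either direction. UCHL1, a neuronal ubiquitin hydrolase, had 78.0 and 77.0 FPKM in control libraries and 69.8 and 67.5 FPKM in the ETS1 libraries, a change of -0.17 (limma adjusted p = 0.00673) that lost the threshold under quantile normalization (-0.011, limma adjusted p = 0.715). SYP, the synaptic vesicle protein synaptophysin, fell from 8.04 and 7.83 FPKM to 4.63 and 4.66 FPKM (limma adjusted p = 0.000524). ENO2, neuronal enolase, rose from 15.2 and 14.4 FPKM to 18.7 and 18.4 FPKM (limma adjusted p = 0.00276). The summed level of the 13 was 106 and 105 FPKM against 97.5 and 94.98 FPKM. UCHL1 alone made up most of that sum in each library. The part of neuronal markers in the INA, NEFL and NEFM results was not tested. The neuronal tubulin gene TUBB3 and DCX did not exceed 0.111 FPKM in any library.

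Markers of other cell types that make vimentin were also read. Of 9 stromal markers 2 reached the filter. COL1A1, a collagen chain, had 2.12 ± 0.0789 FPKM in control libraries and 2.84 ± 0.0511 FPKM in ETS1 libraries (SD, n = 2 each; limma adjusted p = 0.00599), and ACTA2, smooth muscle actin, had a limma adjusted p of 0.378. The stromal sum was 7.46 and 6.53 FPKM in control libraries and 8.04 and 8.52 FPKM in the ETS1 libraries. The other 7 stromal markers were under the filter and did not exceed 0.168 FPKM in any library, with LUM, a proteoglycan gene, at 0.0082 and 0.0376 FPKM in control libraries and 0.168 and 0.141 FPKM with ETS1. The part of stromal markers in the VIM result was not tested. The 4 endothelial markers in the table summed to at most 0.127 FPKM in each library.

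The position of the members was compared with their neighbours. Within 250000 bases of the INA start, 4 other genes were tested, with changes from -0.18 (PDCD11) to 0.12 (NT5C2). Of these, 1 was called lower, where 28.4% of all tested genes were. INA was chosen for its rise, so its gap from these genes is given as a description. Around VIM, TRDMT1, a tRNA methyltransferase gene whose start lies at -26205 bases from it, had 0.36 (limma adjusted p = 0.00605). Around NEFL, apart from NEFM, DOCK5 had -0.18 (limma adjusted p = 0.0432). Around SYNM, 3 genes were tested, among them TTC23 (limma adjusted p = 0.467), with changes from -0.031 to -0.019. Of these 3, 0 were called, where 59.1% of all tested genes were called in either direction.

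**Figure D4:**
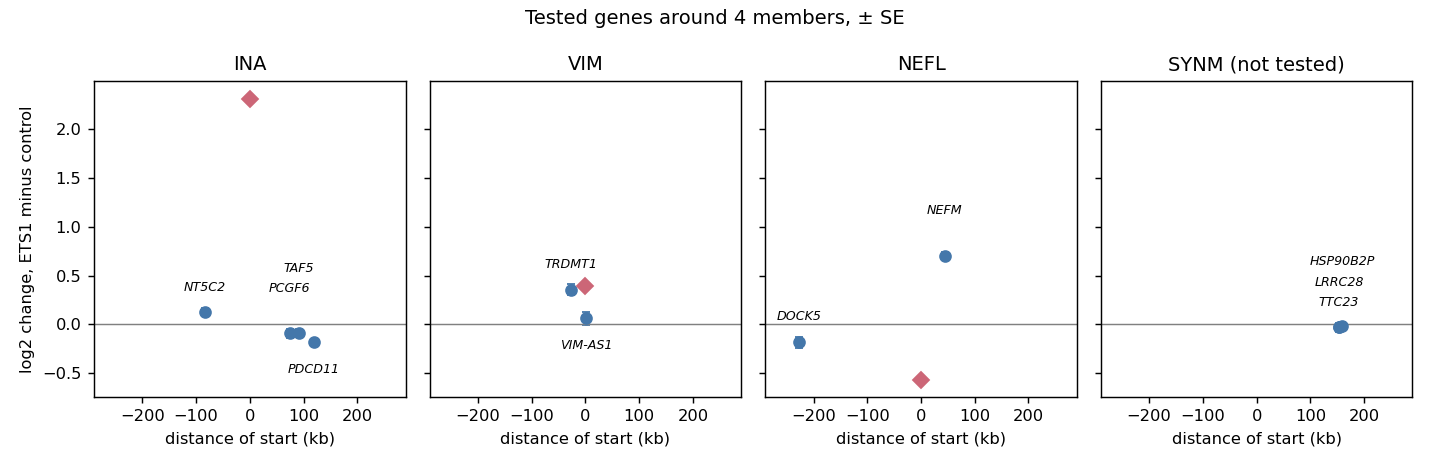
Log2 change of tested genes (blue, ± SE) whose start lies within 250 kb of the start of INA, VIM, NEFL or SYNM (red diamond where tested), against distance along the member's own strand. INA, shown as a description since its rise chose the set, stands at 2.31, and its neighbours lie between -0.18 and 0.12. NEFM at 0.71 lies beside NEFL at -0.57.

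In the authors' deposited table, 9 of the 10 genes are listed, all but NEFH. It gives log2 fold changes of 2.59 for INA, 1.00 for NES, 0.78 for SYNM, 0.70 for NEFM, 0.36 for VIM, 0.35 for LMNA, 0.28 for LMNB1, 0.018 for LMNB2 and -0.60 for NEFL. Setting INA aside, 7 of the other 8 have an adjusted p under 0.05 in the authors' deposited table, LMNB2 being the exception with 0.758, where 51.2% of the 15683 genes with an adjusted p do.

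**Figure D5:**
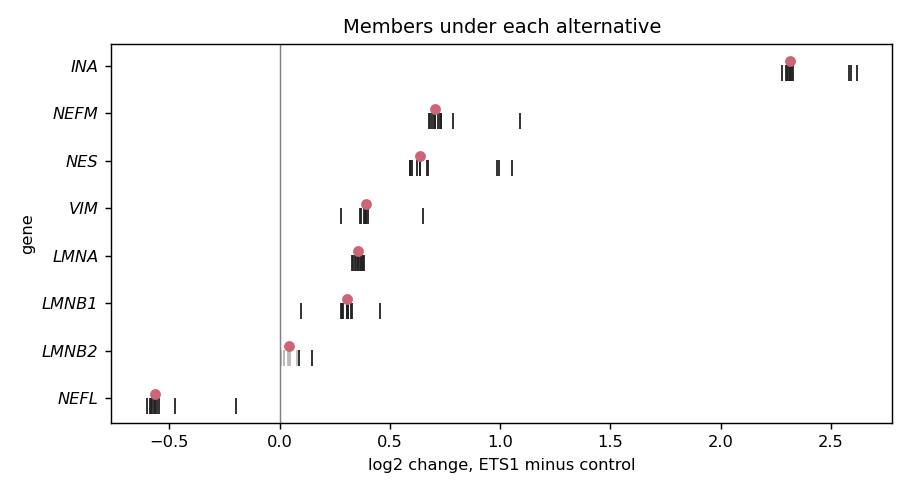
Log2 change of each tested member as reported (red points) and under each alternative setting (ticks, black where past that setting's threshold and grey where not); INA is plotted as a description, since its rise chose the set. LMNB2 has grey ticks and lies between 0.0054 and 0.15, and NEFL runs from -0.60 to -0.20 without crossing 0.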

How the data were processed

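RNA of 4 TE5 libraries was sequenced in bulk. The deposited FPKM values were computed by the authors; HISAT2, HTSeq and DESeq2, with hg38/GRCh38, are named in the submitters' processing notes. Versions, annotation and use of strand are not given in the sources used here. The deposited comparison table adds a signal averaged by the authors over libraries (the mean normalized count), the authors' log2 fold changes with their errors, and the authors' p-value and adjusted p-value, per the file headers.

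FPKM was taken as log2(FPKM + 1) for genes with a mean of at least 1, and 14306 genes were fitted with limma 3.58.1 in R 4.3.3. The fit had a group term only, an intensity trend, two-sided tests and Benjamini-Hochberg adjustment over all genes. It was tested on simulated data. Whole reads were recovered for genes of the comparison table from FPKM and the mean normalized count. Of values for genes with a mean normalized count under 100, 99.3% lay within 0.05 of a whole number, against 10% by chance. Positions come from GENCODE 29, matched by gene name.

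The members and gene lists were chosen with earlier results of these data known. Named are all members, ETS1, at most 3 genes of each list with the largest change or, for markers, the highest level, the 3 genes closest to INA, and at most 3 neighbours of INA, VIM, NEFL and SYNM. KRT13, KRT5, TUBB3, DCX, LUM, DES, GFAP, ICMT, ZMPSTE24 and TIMM13 were named after their values were seen. The immune marker list is not reported here.

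The alternatives were a pseudocount of 0.1, no filter or a mean of at least 5 FPKM, quantile normalization, scaling by a trimmed mean, a replicate block, no trend, a threshold of 0.01, voom on recovered reads, removal of the median of 25 genes on each side, the authors' deposited values, and leaving out each library.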

Additional observations from a re-analysis of the deposited data

How the results depend on the processing

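NEFL, NEFM, VIM, LMNA and LMNB1 kept their direction and side of the threshold under all 15 alternatives, and NES under all 14 in which it was tested; LMNB2 passed under 2 of 15. INA, whose rise chose the set, is left out of these and the following counts of members. Of the other members, 5 of 6 tested were called at a mean of at least 5 FPKM, where 67.7% of all tested genes were called, 7 of 9 with no filter, where 19.6% were, and 6 or 7 otherwise, where 37.6% to 65.3% were. Over all genes, calls went from 8451 to 5562 (2562 higher) at that filter and to 5386 (2667 higher) at a threshold of 0.01. Leaving out 1 library gave 5790 to 7680 calls, of which 2845 to 3962 were higher and 2945 to 3720 lower, and 6 of 7 tested members in each case, beside 40.5% to 53.7% of all tested genes. These fits leave 1 library in a group and 1 residual degree of freedom, so the lone library is assumed to vary like the other group. The genes called over the lists went from 25 to between 16 and 22 without 1 library, with the lowest count without ETS1 replicate 2. Without ETS1 replicate 1, 2 of the lamin processing genes were called. The replicate block gave 7283 calls and changed no member's call. Same-numbered libraries did not deviate together (r = -0.0456 across genes), so the labels' numbers are not treated as pairs. With 2 libraries per group, an exact test of 1 value cannot go below p = 0.333. Reads of NEFH were not recovered.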

Other observations

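STMN2, a neuronal stathmin gene, was lower in the ETS1 libraries, as was NEFL, while INA and NEFM were higher. STMN2, NEFL and NEFM all lie on chromosome 8, with STMN2 from base 79610814 and NEFL from base 24950955. STMN2 had 0.65 and 0.652 FPKM in the controls and 0.0369 and 0.0374 FPKM in the ETS1 libraries. RBFOX3, the gene of the neuronal nuclear antigen NeuN, had 0.693 and 0.692 FPKM in the controls and 0.353 and 0.363 FPKM in the ETS1 libraries. GAP43, a growth cone protein gene, had 0.249 and 0.195 FPKM against 0.568 and 0.55 FPKM. All 3 were under the filter, so the reported fit did not test them, and they were singled out after their values were seen. With no filter the log2 changes were -0.67 for STMN2 (limma adjusted p = 0.0078), -0.32 for RBFOX3 (limma adjusted p = 0.0286) and 0.35 for GAP43 (limma adjusted p = 0.0234). At these levels the pseudocount of 1 FPKM shrinks the change. The ETS1 to control ratios of mean FPKM were 0.0571 for STMN2, 0.517 for RBFOX3 and 2.52 for GAP43. Reads of STMN2 and GAP43 were not recovered, so the depth behind their values is not known. In the authors' deposited table RBFOX3 has -0.92 (log2) at an adjusted p of 1.3e-07.

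SUN1 and SUN2, the inner nuclear membrane side of the bridge between lamins and the cytoskeleton, were both called higher, where 30.7% of all tested genes were. They were also singled out after their values were seen, from 13 tested lamina partners with 6 called higher and 3 lower. SUN1 rose by 0.25 (limma adjusted p = 0.00727) and SUN2 by 0.26 (limma adjusted p = 0.00296), and both kept the threshold under 15 of 15 alternatives.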
